A study of Mus musculus with 21 samples.

Results

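miR-486 is a microRNA whose locus lies in an intron of Ank1, the gene of the membrane-skeleton protein ankyrin-1. It was followed here through both of its annotated mouse hairpins, miR-486a and miR-486b, in the left ventricle of the pressure-overloaded mouse heart. Its members were all rows of the count table named for an arm of either hairpin. There were 4 of them, miR-486a-5p, miR-486a-3p, miR-486b-5p and miR-486b-3p, among 1903 named rows, of which 832 had a count in at least 1 library. All 4 passed the filter on low counts and were among the 561 microRNAs tested. MicroRNA sequencing was done on left ventricle from 21 C57BL/6J mice, 1 library per mouse. Transverse aortic constriction (TAC), a surgical narrowing of the aorta that makes the ventricle pump against a raised pressure, was followed by sildenafil, an inhibitor of phosphodiesterase 5A, in 5 mice (TAC+PDE5A-I), by PF-04449613, an inhibitor of phosphodiesterase 9A, in 6 mice (TAC+PDE9A-I), and by no drug in 5 mice (TAC), while 5 mice had sham surgery and no drug (Sham). Both drugs were given for 4 weeks from 1 week after surgery. The sources used here give no age, sex or dose, the undrugged mice are not described as having had a vehicle, and no group of sham mice was given a drug.

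A microRNA hairpin is cut into a short duplex, and 1 strand, the guide, is kept by an Argonaute protein and pairs with target messenger RNAs, while the other, the passenger, is mostly discarded. For miR-486 the 5p arm is the guide. It is abundant in heart and skeletal muscle, where it is transcribed from a muscle promoter inside Ank1. It is also abundant in red blood cells, and removal of its 3p passenger there is known to depend on the slicing activity of Argonaute2. Phosphodiesterases 5A and 9A both break down cyclic GMP, so that either inhibitor raises this second messenger.

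In the GENCODE M21 annotation of GRCm38, Mir486 lies at chr8:23142555-23142682 on the plus strand and is 128 bases long. Mir3107, which RefSeq lists as the gene of miR-486b, lies at chr8:23142573-23142662 on the minus strand and is 90 bases long, so that it falls wholly inside Mir486 on the opposite strand. By position, both fall in an intron of 15 Ank1 transcripts and outside the span of 2 others. Ank1 is on the plus strand, so Mir486 has the same orientation as Ank1 and Mir3107 is antisense to it. In Ank1-202 they sit in intron 44 (chr8:23141721-23148280). The antisense gene Gm15816 (chr8:23138794-23149585, minus strand) also holds both in an intron. The sources used here give neither the genome build behind the deposited counts nor how reads that match both hairpins were assigned, so the split between miR-486a and miR-486b rows is uncertain and the sum of the rows is the safer quantity.

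No mature sequence of a miR-486 arm is printed. The microRNAs whose levels followed miR-486b-5p most closely across the libraries, by a rule described further on, are shown by their mature sequences from RefSeq (GRCm38.p6). Their GC content is given further on as a description. Capitals mark the seed, bases 2 to 8, which sets most target pairing, and no seed was shared.
miR-92a-3p: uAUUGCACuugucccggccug
miR-664-5p: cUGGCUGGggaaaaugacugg
miR-1964-3p: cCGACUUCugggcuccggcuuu
miR-106b-3p: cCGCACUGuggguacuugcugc
miR-92a-3p maps to chr14:115044476-115044496 (plus strand) and chrX:52741854-52741874 (minus strand), miR-664-5p to chr1:185242975-185242995 (plus), miR-1964-3p to chr7:29773344-29773365 (plus) and miR-106b-3p to chr5:138165746-138165767 (minus).

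The libraries differed in depth with the group. Total counts were 1205417 to 3969716 in TAC+PDE5A-I. They were 1546318 in TAC+PDE9A-I 5, 4785164 to 7532591 for the remaining 5 libraries under PF-04449613, 5373960 to 8497792 in TAC and 3766517 to 7490436 in Sham. The 4 libraries under 2000000 counts were TAC+PDE5A-I 3, 4 and 5 and TAC+PDE9A-I 5. Their count-weighted GC content, over the microRNAs with a RefSeq sequence, was 47.7%, 48.2%, 48.6% and 47.2%. It was 46.0% in TAC+PDE5A-I 1 and 2 and 44.6% to 45.3% in the other 15 libraries. The microRNAs with a sequence, which include no miR-486 row, held 32.0% to 37.2% of counts in those 4 libraries and 50.9% to 64.9% in the others. Muscle microRNAs (13 tested of 17 listed, led by miR-133a-3p) summed to 76291 to 273060 CPM in all 21 libraries. Since ventricle was sequenced in bulk, fewer cells of a type and less RNA per cell cannot be told apart in any value given here. CPM are counts scaled to library size by the trimmed mean of M-values (TMM).

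miR-486 was among the most abundant microRNAs of every ventricle. Ranked within each library, miR-486b-5p stood between 1st and 5th, miR-486a-5p between 4th and 16th, miR-486a-3p between 34th and 103rd, and miR-486b-3p between 66th and 148th. The 4 rows together took 16.9%, 14.3%, 30.9%, 33.4% and 37.2% of all counts in TAC+PDE5A-I 1 to 5. They took 8.31%, 10.6%, 12.3%, 7.23%, 31.3% and 10.8% in TAC+PDE9A-I 1 to 6, 16.3%, 12.2%, 10.3%, 9.61% and 12.5% in TAC, and 11.4%, 15.0%, 12.5%, 12.7% and 11.9% in Sham. In 17 libraries the share lay between 7.23% and 16.9%, and in the 4 libraries under 2000000 counts it lay between 30.9% and 37.2%. Counting error was small beside these differences, as the highest share had a 95% Wilson interval of 37.1% to 37.3%, an interval that covers counting error only. The mean share was 26.5% ± 10.3 in TAC+PDE5A-I and 12.2% ± 2.61 in TAC (SD, n = 5 each), a difference of 14.4 points that did not pass after adjustment over 18 tests (two-sided exact permutation p = 0.0159, adjusted p = 0.0571). It passed without TAC+PDE5A-I 2 (17.4 points, two-sided exact permutation adjusted p = 0.0286) and without TAC+PDE9A-I 5, which changed only the adjustment (adjusted p = 0.0476). Without the libraries under 2000000 counts the difference was 3.40 points (two-sided exact permutation adjusted p = 0.245).

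**Figure D1:**
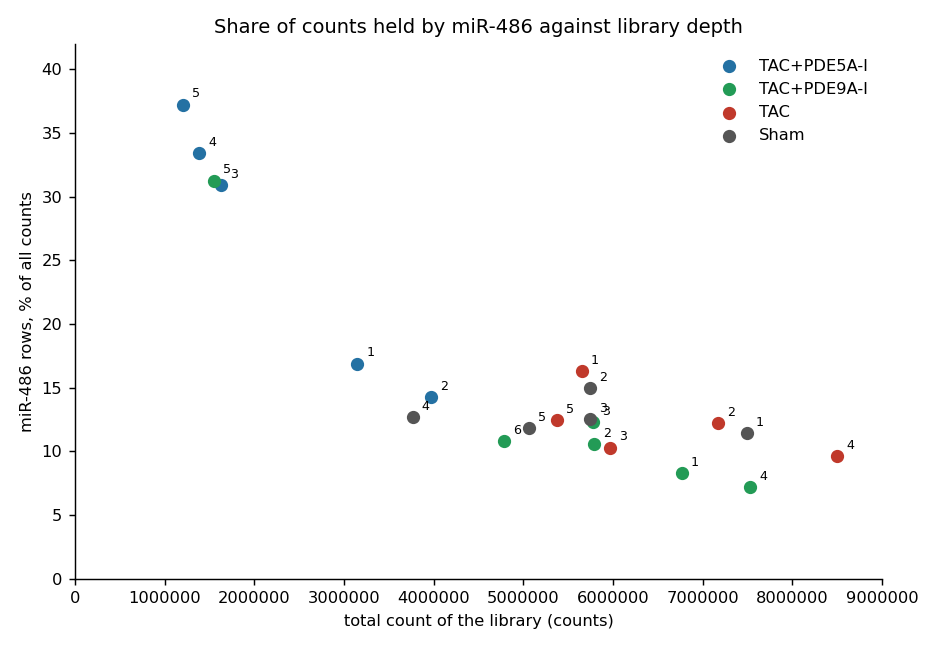
Share of all counts held by the 4 miR-486 rows (vertical axis, percent) against the total count of the library (horizontal axis, counts), 1 point per library with its replicate number. The 4 libraries under 2000000 counts lie between 30.9% and 37.2%, and the other 17 between 7.23% and 16.9%.

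The guide arm was higher under sildenafil than in undrugged TAC hearts, and the rise sat in the shallow libraries. miR-486b-5p measured 131329, 104449.9, 305039, 263776 and 274450.4 CPM in TAC+PDE5A-I 1 to 5, against 150927, 96583, 73771, 83693 and 104859 CPM in TAC 1 to 5. TAC+PDE5A-I 1 and 2 lay inside the TAC range and TAC+PDE5A-I 3, 4 and 5 above it, so the groups overlapped. The means were 215809 ± 91158 CPM in TAC+PDE5A-I and 101967 ± 29847 CPM in TAC (SD, n = 5 each), a 2.12-fold difference (log2 fold change 1.08 ± 0.37 SE, 95% interval 0.30 to 1.86, adjusted p = 0.0229 in edgeR's quasi-likelihood test with Benjamini-Hochberg adjustment over 561 microRNAs). In this comparison 21.6% of all tested microRNAs were called higher and 24.8% lower, so a call was common. Calls numbered 121 higher and 139 lower, and 172 higher and 110 lower with upper-quartile scaling, which moved the median over all tested microRNAs to 0.16, beside -0.31 with TMM.

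miR-486a-5p followed the same course, which is no separate support, since the mature 5p sequences are near-identical or identical and reads can be assigned to either row. Its level was 26760.48, 21354, 58262, 46964 and 58356 CPM in TAC+PDE5A-I 1 to 5, against 27894, 20029, 13225, 14928 and 20455 CPM in TAC 1 to 5, and its log2 fold change was 1.13 ± 0.38 (edgeR adjusted p = 0.0208). With both 5p rows summed before the fit, the log2 fold change was 0.96 ± 0.36 (edgeR adjusted p = 0.0389). The call on miR-486a-5p was lost without Sham 5, TAC 3 or 4, TAC+PDE5A-I 3, 4 or 5, or TAC+PDE9A-I 2 (0.69 to 1.05). That on the summed rows was lost without Sham 5, TAC 3, 4 or 5, TAC+PDE5A-I 3, 4 or 5, or TAC+PDE9A-I 3 (0.68 to 0.86).

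**Figure D2:**
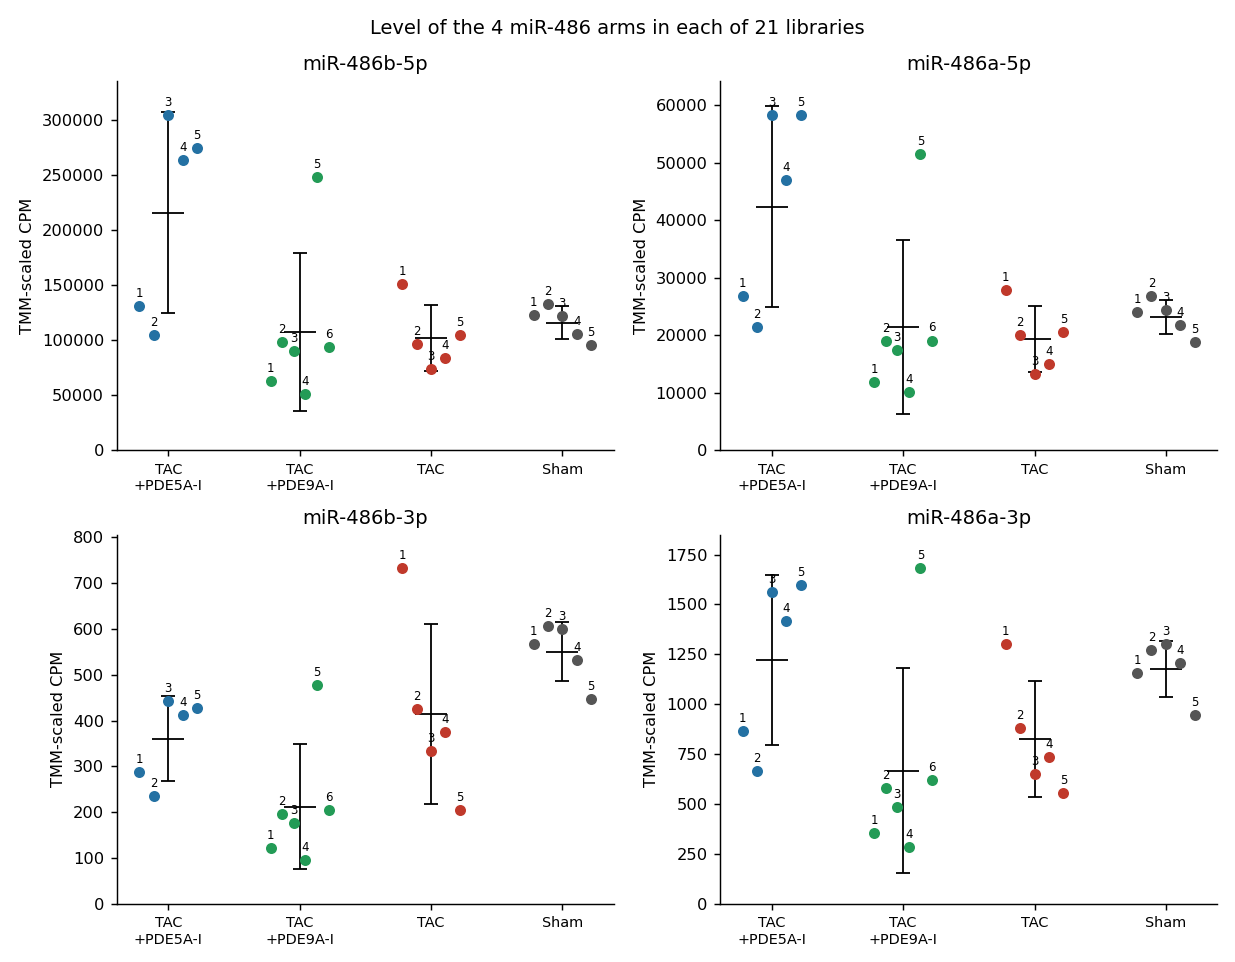
TMM-scaled CPM of each miR-486 arm (vertical axes, linear, from 0), 1 point per library with its replicate number, in TAC+PDE5A-I, TAC+PDE9A-I, TAC and Sham, with the mean and SD of each group in black. For miR-486b-5p, TAC+PDE5A-I 3, 4 and 5 and TAC+PDE9A-I 5 lie between 248462 and 305039 CPM, above the other 17 libraries.

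Depth and GC content moved with this rise. Without the 4 libraries under 2000000 counts, miR-486b-5p had a log2 fold change of 0.23 ± 0.26 for TAC+PDE5A-I against TAC and did not pass (edgeR adjusted p = 0.583), with 2 sildenafil libraries left. With library GC as a covariate the log2 fold change was -0.42 (edgeR adjusted p = 0.646), and with library depth as a covariate it was -0.35 (edgeR adjusted p = 0.700). The call was also lost without TAC+PDE5A-I 3 (0.62), 4 (0.69) or 5 (0.69), TAC 3 (0.74) or 4 (1.01), Sham 5 (0.82) or TAC+PDE9A-I 2 (0.82), with edgeR adjusted p from 0.0576 to 0.147. The part of depth and of GC content in the rise cannot be told apart from that of the drug, since all 5 TAC+PDE5A-I libraries lay above all TAC libraries in GC content and below them in depth.

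**Figure D3:**
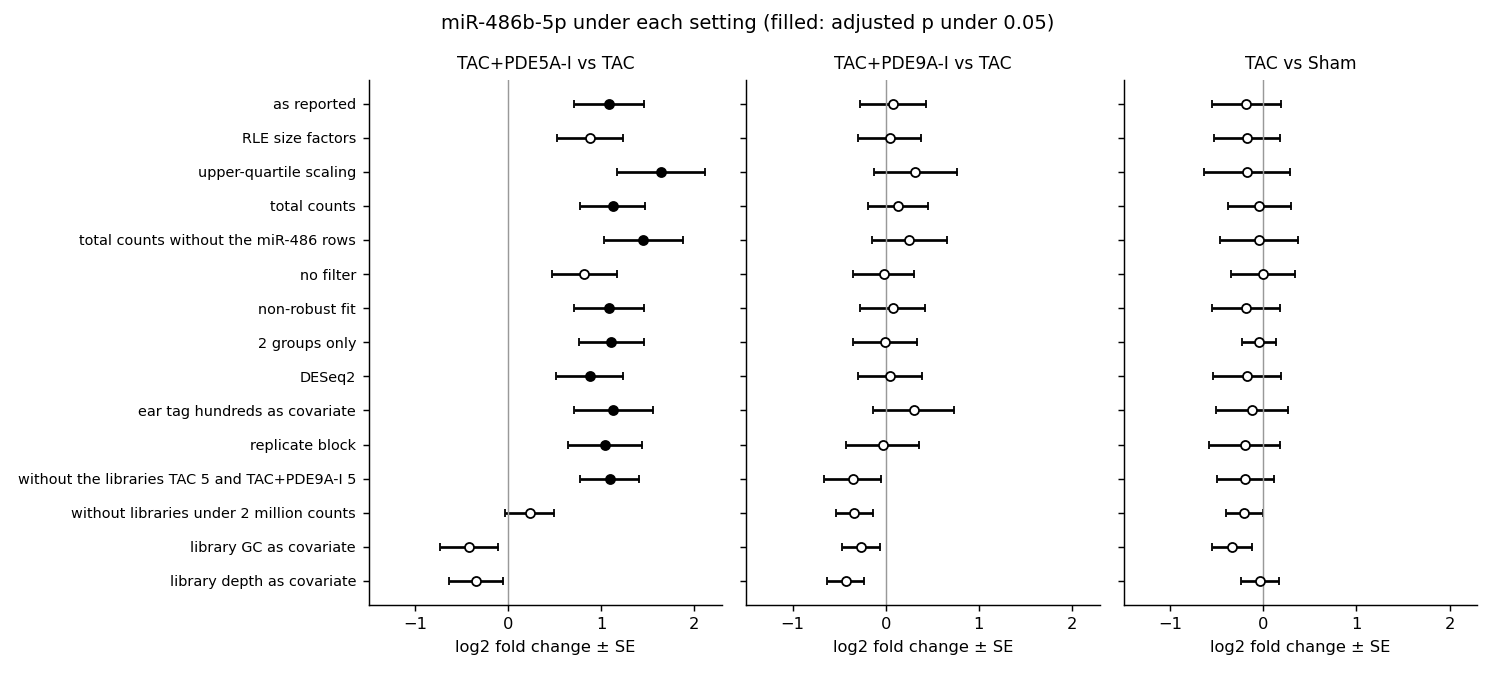
log2 fold change of miR-486b-5p with its SE (horizontal axes) under each setting of the fit (rows), for TAC+PDE5A-I against TAC, TAC+PDE9A-I against TAC, and TAC against Sham. Filled points have an adjusted p under 0.05. For TAC+PDE5A-I against TAC the value is 1.08 as reported, 0.23 without the libraries under 2000000 counts and -0.42 with library GC as a covariate.

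Under PF-04449613, set against TAC, the guide arm did not pass in either direction. miR-486b-5p measured 62974, 98205, 90046, 50976, 248462 and 93236 CPM in TAC+PDE9A-I 1 to 6. TAC+PDE9A-I 5 stood far above the other 5, which spanned 50976 to 98205 CPM and overlapped the TAC range. The log2 fold change against TAC was 0.07 ± 0.35 (95% interval -0.66 to 0.81, edgeR adjusted p = 0.991), and without TAC+PDE9A-I 5 it was -0.37 ± 0.24 (edgeR adjusted p = 1.00). For miR-486a-5p it was 0.15 ± 0.36 against TAC (edgeR adjusted p = 0.991). By edgeR 0% of all tested microRNAs were called in this comparison, 16 had an unadjusted p under 0.05, and DESeq2 called 2 higher and 2 lower.

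Set side by side, the guide arm was higher under sildenafil than under PF-04449613. miR-486b-5p averaged 215809 ± 91158 CPM in TAC+PDE5A-I (n = 5) and 107316 ± 71613 CPM in TAC+PDE9A-I (n = 6), a log2 difference of 1.01 ± 0.35 (edgeR adjusted p = 0.0330), where 15.2% of all tested microRNAs were called higher and 19.6% lower (85 and 110; 50 and 126 with RLE size factors, 138 and 90 with upper-quartile scaling). miR-486a-5p differed by 0.98 ± 0.36 (edgeR adjusted p = 0.0402), and the summed 5p rows by 0.91 ± 0.34, which did not pass (edgeR adjusted p = 0.0519). Without the libraries under 2000000 counts the difference for miR-486b-5p was 0.57 ± 0.26 (edgeR adjusted p = 0.148). The call was lost in a fit of these 2 groups alone (0.89, edgeR adjusted p = 0.131) and with the replicate number as a block (1.07, edgeR adjusted p = 0.0510). It was also lost without Sham 5, TAC 3, TAC+PDE5A-I 3, 4 or 5, or TAC+PDE9A-I 1, 2, 3, 4 or 6 (0.69 to 0.90, edgeR adjusted p from 0.0669 to 0.125). The call on miR-486a-5p was lost in 10 of 21 fits without 1 library, those without Sham 5, TAC 3, TAC+PDE5A-I 3, 4 or 5, or TAC+PDE9A-I 1, 2, 3, 4 or 6 (0.68 to 0.86). It was weaker and not called in 7 of 14 other settings and turned to -0.17 with library GC. The summed rows passed in 11 of 21 fits without 1 library, those without Sham 1, 2, 3, 4 or 5, TAC 1, 2 or 3, TAC+PDE5A-I 1 or 2, or TAC+PDE9A-I 5 (0.86 to 1.261), and in 6 of 14 other settings.

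Between TAC and Sham the guide arm had no call. miR-486b-5p averaged 101967 ± 29847 CPM in TAC and measured 122487, 133146, 121686, 105885 and 95895 CPM in Sham 1 to 5 (115820 ± 14788, SD, n = 5 each). The groups overlapped, with TAC 1 above all Sham libraries and TAC 3 and 4 below them. The log2 fold change was -0.18 ± 0.37 (95% interval -0.95 to 0.59, edgeR adjusted p = 0.973), and that of miR-486a-5p was -0.26 ± 0.38 (edgeR adjusted p = 0.926). In this comparison 2.14% of all tested microRNAs were called higher and 0.178% lower.

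Set against Sham, the guide arm had a log2 fold change of 0.90 ± 0.37 in TAC+PDE5A-I for miR-486b-5p (edgeR adjusted p = 0.0583) and 0.87 ± 0.38 for miR-486a-5p (edgeR adjusted p = 0.0689). Neither passed, in a comparison where 19.1% of all tested microRNAs were called higher and 23.5% lower (107 and 132; 164 and 111 with upper-quartile scaling, 160 and 111 with total counts without the miR-486 rows). miR-486b-5p passed without TAC+PDE5A-I 2 (0.98), TAC+PDE9A-I 4 (0.88) or TAC+PDE9A-I 5 (0.78), and with upper-quartile scaling (1.47). Without the libraries under 2000000 counts, miR-486b-5p differed from Sham by 0.03 ± 0.26. In TAC+PDE9A-I against Sham it had a log2 fold change of -0.11 ± 0.35 (edgeR adjusted p = 0.983), which turned to 0.14 with upper-quartile scaling, and without TAC+PDE9A-I 5 of -0.47 ± 0.25 (edgeR adjusted p = 0.426). TAC and Sham are shared between these comparisons, so the values are not independent of each other.

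Of the passenger rows, miR-486b-3p fell in TAC+PDE9A-I relative to Sham. It measured 121, 195, 176, 96.0, 477 and 205 CPM in TAC+PDE9A-I 1 to 6, against 567, 606, 600.3, 531 and 448 CPM in Sham 1 to 5. TAC+PDE9A-I 5 lay inside the Sham range and the other 5 drugged libraries below it. The level was 212 ± 137 CPM in TAC+PDE9A-I (n = 6) and 550.4 ± 64.5 CPM in Sham (n = 5), and the log2 fold change of -1.38 ± 0.35 passed (95% interval -2.11 to -0.65, edgeR adjusted p = 0.0437), where 0.713% of all tested microRNAs were called lower and 1.25% higher (4 and 7; 4 and 26 with total counts, 2 and 9 with upper-quartile scaling, 2 and 13 with total counts without the miR-486 rows). Without TAC+PDE9A-I 5 it was -1.71 ± 0.26 (edgeR adjusted p = 0.00102). The call was lost without any 1 Sham library, without TAC 2, 3 or 4, or without TAC+PDE9A-I 1, 3 or 4 (-1.39 to -1.18, edgeR adjusted p from 0.0578 to 0.113), and with upper-quartile scaling, total counts without the miR-486 rows, the ear tag range, the replicate block or those groups alone (-1.47 to -1.08, edgeR adjusted p from 0.0759 to 0.507).

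Other passenger comparisons were not called with all libraries, and some passed under other settings. miR-486b-3p measured 733, 426, 333, 375 and 204 CPM in TAC 1 to 5, and TAC 5 was the lowest of them. Against TAC, the TAC+PDE9A-I libraries had a log2 fold change of -0.97 ± 0.35, which did not pass over all microRNAs (edgeR unadjusted p = 0.0111, adjusted p = 0.991). It passed without TAC+PDE9A-I 5 (-1.39 ± 0.26, edgeR adjusted p = 0.0252) and without the 4 libraries under 2000000 counts (-1.36 ± 0.27, edgeR adjusted p = 0.0373), where 1 and 2 microRNAs in all were called lower. It also passed with library depth as a covariate (-1.41, edgeR adjusted p = 0.0109) and without TAC 5 and TAC+PDE9A-I 5 together (-1.56, edgeR adjusted p = 0.00815). miR-486a-3p averaged 667 ± 513 CPM in TAC+PDE9A-I and 1177 ± 141 CPM in Sham, and its log2 fold change was -0.82 ± 0.37 (edgeR adjusted p = 0.380). With libraries left out in turn it passed without TAC+PDE9A-I 5 (-1.27 ± 0.25, edgeR adjusted p = 0.00418). It also passed in 4 of 14 other settings, with library GC or library depth as a covariate, without TAC 5 and TAC+PDE9A-I 5 together, and without the libraries under 2000000 counts (-1.34 to -1.22, edgeR adjusted p from 0.00190 to 0.00855).

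Under sildenafil neither passenger row was called against Sham, TAC or TAC+PDE9A-I with all libraries in the fit. miR-486b-3p measured 288, 235, 444, 411 and 427 CPM in TAC+PDE5A-I 1 to 5, all below the 5 Sham libraries, whose lowest was 448 CPM. The log2 fold change against Sham was -0.61 ± 0.36 (edgeR adjusted p = 0.180), where 21.6% of all tested microRNAs lay lower without overlap. It passed without TAC+PDE9A-I 5 (-0.71, edgeR adjusted p = 0.0324). It also passed in a separate fit of TAC+PDE5A-I and Sham alone (-0.77, edgeR adjusted p = 0.00935), and with library GC (-1.81, edgeR adjusted p = 0.0385) or library depth (-1.59, edgeR adjusted p = 0.00972) as a covariate. Against TAC the log2 fold change was -0.20 ± 0.36 for miR-486b-3p and 0.56 ± 0.39 for miR-486a-3p (edgeR adjusted p = 0.686 and 0.242), and the value of miR-486b-3p turned to 0.35 with upper-quartile scaling. Against TAC+PDE9A-I the log2 differences had the same sign as those of the guide rows, 0.87 ± 0.37 for miR-486a-3p and 0.77 ± 0.35 for miR-486b-3p (edgeR adjusted p = 0.0719 and 0.0896). Both passed without TAC+PDE9A-I 5 (1.21 and 1.01, edgeR adjusted p = 0.000988 and 0.00496), without TAC 5 and TAC+PDE9A-I 5 together (1.40 and 1.18), and with upper-quartile scaling (1.17 and 1.08), and turned to -0.17 and -0.047 with library GC as a covariate. miR-486a-3p averaged 1222 ± 427 CPM in TAC+PDE5A-I, 826 ± 292 CPM in TAC and 1177 ± 141 CPM in Sham (SD, n = 5 each). In TAC against Sham the log2 fold changes of miR-486b-3p and miR-486a-3p were -0.41 ± 0.36 and -0.51 ± 0.39 (edgeR adjusted p = 0.797 and 0.692).

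The ratio of the 2 arms within a library does not depend on scaling, and it separated the drugged libraries from Sham. The summed 5p counts were 137, 140, 181, 170 and 165 times the summed 3p counts in TAC+PDE5A-I 1 to 5. The ratio was 158, 151, 162, 161, 139 and 136 in TAC+PDE9A-I 1 to 6. It was 87.9, 89.3, 88.3, 88.7 and 165 in TAC 1 to 5, and 85.0, 85.2, 76.8, 73.4 and 82.3 in Sham 1 to 5. The lowest drugged library, at 136, lay above all 5 Sham libraries and above TAC 1 to 4. TAC 5 had no drug by its label and lay among the drugged libraries.

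The mean ratio was 158 ± 19.3 in TAC+PDE5A-I (n = 5), 151 ± 11.3 in TAC+PDE9A-I (n = 6), 104 ± 34.0 in TAC (n = 5) and 80.5 ± 5.22 in Sham (n = 5). On the log2 scale TAC+PDE5A-I lay 0.97 above Sham (two-sided exact permutation p = 0.00794, adjusted p = 0.0476 over 18 tests) and TAC+PDE9A-I lay 0.91 above Sham (two-sided exact permutation p = 0.00216, adjusted p = 0.0390). Both p are the smallest these group sizes allow. Without any 1 Sham library the differences were 0.94 to 0.99 for TAC+PDE5A-I and 0.88 to 0.93 for TAC+PDE9A-I, and neither passed (two-sided exact permutation adjusted p = 0.0714). Drugged and Sham libraries still did not overlap there. Each p was again the smallest the group sizes allowed, so the calls were lost to the adjustment and, for TAC+PDE9A-I, also to fewer arrangements. Against TAC the differences were 0.65 for TAC+PDE5A-I (two-sided exact permutation p = 0.0238, adjusted p = 0.0612) and 0.59 for TAC+PDE9A-I (two-sided exact permutation p = 0.0195, adjusted p = 0.0584), and neither passed. Without TAC 5 they were 0.83 and 0.77, and both passed (two-sided exact permutation, adjusted p = 0.0357 for each). TAC lay 0.32 above Sham (two-sided exact permutation p = 0.00794, adjusted p = 0.0476). Without TAC 5 that difference was 0.14 and did not pass (two-sided exact permutation, adjusted p = 0.0714), nor did it pass without any 1 Sham library (0.29 to 0.34, adjusted p from 0.119 to 0.161). TAC+PDE5A-I and TAC+PDE9A-I differed by 0.06 (two-sided exact permutation p = 0.483, adjusted p = 0.668).

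**Figure D4:**
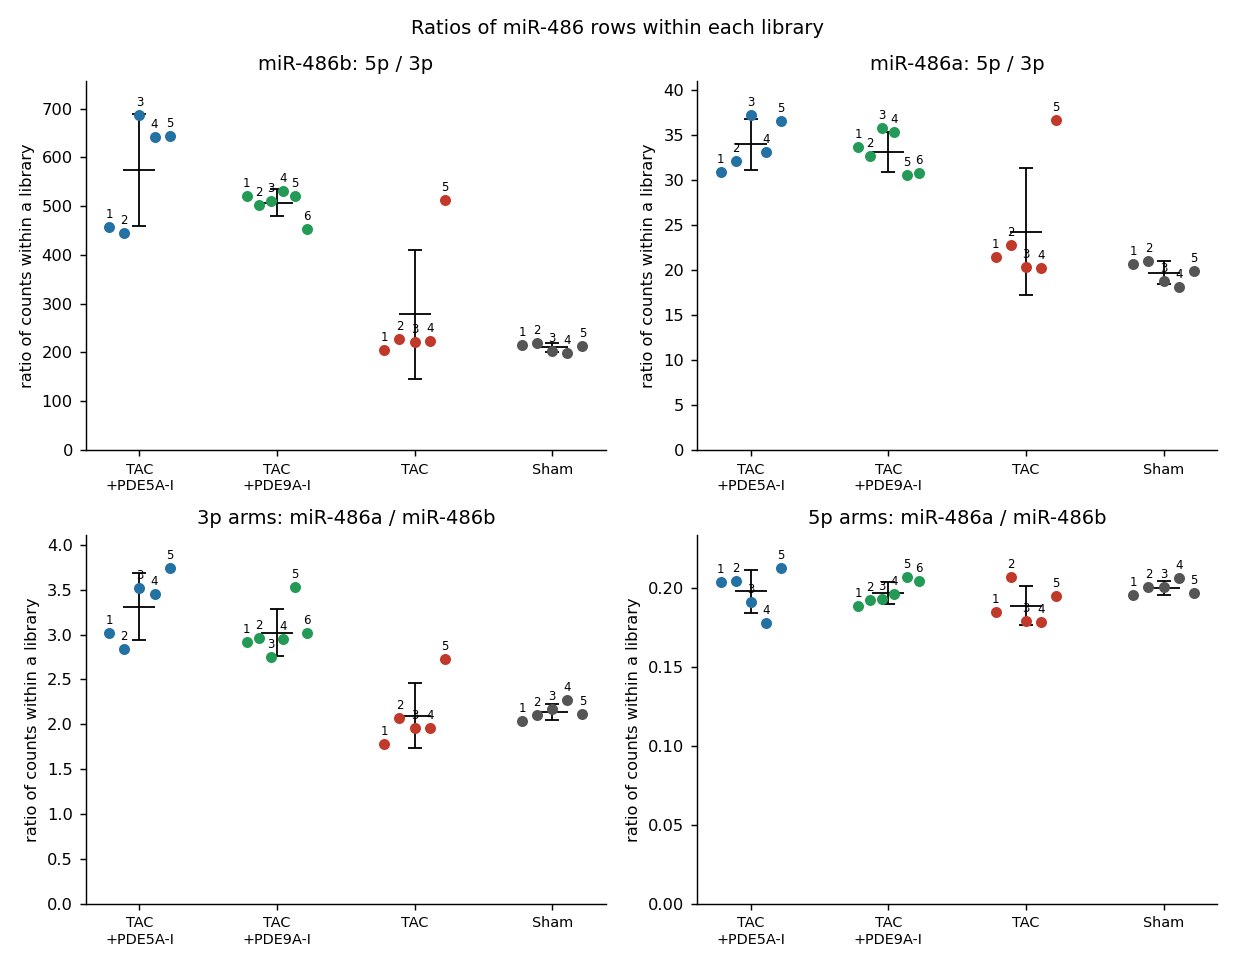
Ratios of the counts of 2 miR-486 rows within each library (vertical axes, linear, from 0), 1 point per library with its replicate number, with the mean and SD of each group in black. The 5p over 3p ratio of miR-486b lies between 445 and 688 in the 11 drugged libraries, at 513 in TAC 5, and between 199 and 227 in TAC 1 to 4 and Sham.

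Each hairpin showed the same split, miR-486b more widely than miR-486a. For miR-486b the 5p count was 445 to 688 times the 3p count in TAC+PDE5A-I, 454 to 531 times in TAC+PDE9A-I, 206 to 227 times in TAC 1 to 4 and 513 times in TAC 5, and 199 to 219.9 times in Sham. For miR-486a the ratio was 30.9 to 37.3 in TAC+PDE5A-I, 30.6 to 35.8 in TAC+PDE9A-I, 20.3 to 22.8 in TAC 1 to 4 and 36.7 in TAC 5, and 18.1 to 21.04 in Sham. No library lay between 227 and 445 for miR-486b or between 22.8 and 30.6 for miR-486a. TAC+PDE9A-I 1, 2, 3, 4 and 6, with 4785164 counts or more and 44.7% to 45.3% GC, all had the higher ratio. The part of depth, GC content or library preparation in the split was not tested.

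The split came with raw 3p counts well above the floor, so that counting noise was small. miR-486b-3p had 572 to 1049 counts in TAC+PDE5A-I, 763 to 1158 in TAC+PDE9A-I, 2329 to 3731 in TAC 1 to 4 and 1086 in TAC 5, and 1967 to 3274 in Sham. The miR-486b-5p counts, from 367852 to 768662 over all libraries, showed no such gap between TAC 5 and TAC 1 to 4.

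The miR-486 hairpins were compared with the 56 hairpins that had at least 10 counts on both arms in every library. In TAC+PDE9A-I against Sham, the log2 arm ratio of miR-486b rose by 1.27 and that of miR-486a by 0.75, in 1st and 3rd place of 56, where the median hairpin moved by 0.06. Both groups of ratios lay apart without overlap, as they did upward for 7.14% of the hairpins (two-sided exact permutation p = 0.00216, adjusted p = 0.00974 for each over the 18 tests added after the ratios were seen). In TAC+PDE9A-I against TAC, miR-486b stood 2nd (0.96, two-sided exact permutation adjusted p = 0.0173) and miR-486a 6th (0.49, adjusted p = 0.0425). The 2 groups overlapped for both hairpins, through TAC 5, and 0% of the hairpins lay higher without overlap. The share of the other hairpins that would pass the permutation test was not computed for any comparison. The call on miR-486b was lost without TAC+PDE9A-I 1, 4 or 5 (0.95, two-sided exact permutation adjusted p = 0.0571), and that on miR-486a without any 1 library of TAC+PDE9A-I or of TAC 1 to 4 (0.43 to 0.51).

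Under sildenafil many hairpins shifted more than miR-486. In TAC+PDE5A-I against Sham, the changes of 1.43 for miR-486b and 0.79 for miR-486a were in 5th and 10th place among changes from -3.06 to 5.92, and 17.9% of the hairpins lay higher without overlap (two-sided exact permutation adjusted p = 0.0173 for each). Against TAC, miR-486b stood 6th (1.12, two-sided exact permutation adjusted p = 0.0425) and miR-486a 13th (0.52, adjusted p = 0.0595). The groups overlapped for both, where 14.3% of the hairpins lay higher without overlap. The miR-486b call was lost without TAC 1, 2, 3 or 4 or TAC+PDE5A-I 3, 4 or 5 (1.04 to 1.08), and miR-486a passed without TAC 5 (0.68, two-sided exact permutation adjusted p = 0.0119). In TAC against Sham, the changes were 0.31 and 0.26, in 9th and 13th place, and neither passed (two-sided exact permutation adjusted p = 0.133 and 0.110), where 5.36% lay higher without overlap. Without TAC 1, miR-486b passed (0.39, two-sided exact permutation adjusted p = 0.0159).

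**Figure D5:**
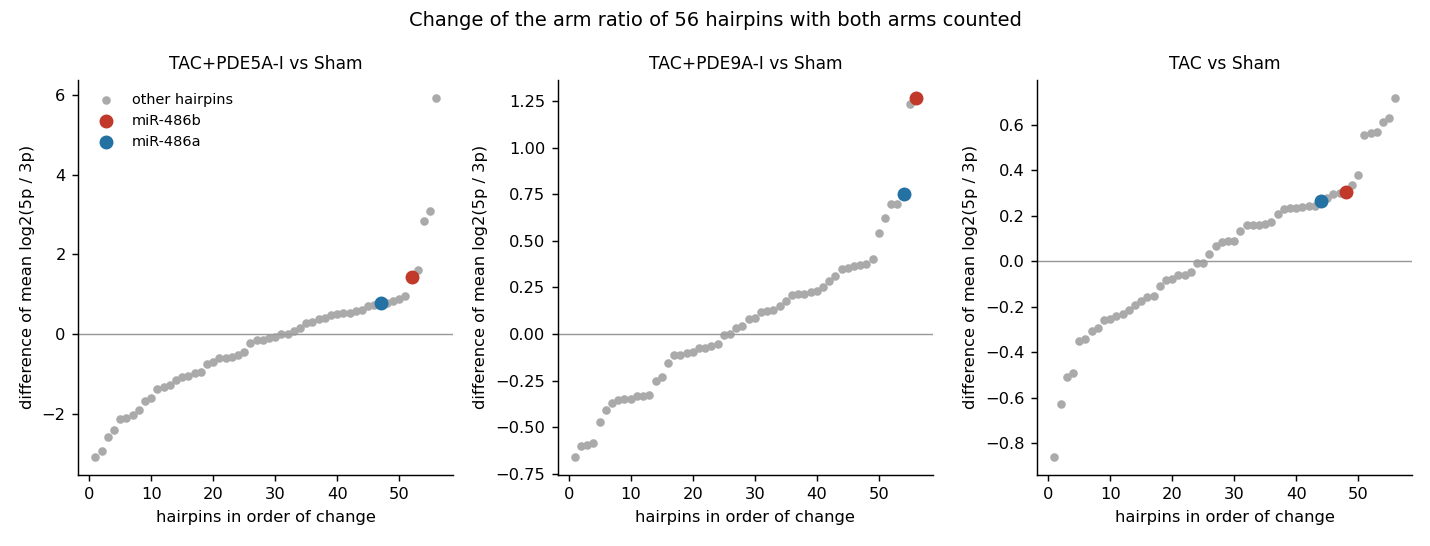
Difference of the mean log2(5p / 3p) (vertical axes) for each of 56 hairpins with both arms counted, in order of change (horizontal axes), for TAC+PDE5A-I, TAC+PDE9A-I and TAC, each against Sham. miR-486b and miR-486a are marked, and in TAC+PDE9A-I they stand 1st and 3rd, at 1.27 and 0.75.

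TAC 5 stood apart for miR-486 and not for most other hairpins. Its log2 arm ratio differed from the median of TAC 1 to 4 by 1.21 for miR-486b and 0.82 for miR-486a, in 1st and 2nd place by size among the 56 hairpins. It lay outside the range of the other 4 TAC libraries for 16 of 56 hairpins, a count of 13 to 41 when each of those libraries was left out in turn. Across the levels of all 561 microRNAs it lay outside that range for 182, against 180 to 300 for TAC 1 to 4. This comparison was chosen after the values were seen and is a description of 1 library.

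The labels give each mouse an ear tag number, and the tags fell into the 100s, 500s and 600s. Within the 100s the arm ratio was 158 in the 1 TAC+PDE9A-I library, 87.9 and 89.3 in 2 TAC libraries, and 76.8 to 85.2 in 3 Sham libraries. Within the 500s it was 137 and 140 in 2 TAC+PDE5A-I libraries, 139 to 162 in 4 TAC+PDE9A-I libraries and 88.3 in the 1 TAC library. Within the 600s it was 165 to 181 in 3 TAC+PDE5A-I libraries, 136 in the 1 TAC+PDE9A-I library, 88.7 and 165 in 2 TAC libraries, and 73.4 and 82.3 in 2 Sham libraries. The drugged libraries lay above the undrugged ones within each range, apart from TAC 5 in the 600s. The 100s held only 1 drugged library and the 500s only 1 undrugged library. The labels name no batch of library preparation or sequencing, and the part of a batch in the ratio was not tested.

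The ratio of the 2 passenger rows differed between groups, and no difference was called for the 2 guide rows. The mature 5p sequences of the 2 hairpins are near-identical or identical, so reads can be assigned to either row. The ratio of the guide rows therefore cannot show whether the hairpins differ. How reads were shared between the passenger rows is not given either. miR-486a-5p counted 0.178 to 0.213 times miR-486b-5p in all 21 libraries, and none of 6 group differences passed (two-sided exact permutation, lowest adjusted p = 0.206). Without TAC 2, TAC lay -0.12 from Sham on the log2 scale and passed (two-sided exact permutation adjusted p = 0.0357). miR-486a-3p counted 2.84 to 3.74 times miR-486b-3p in TAC+PDE5A-I, 2.76 to 3.53 times in TAC+PDE9A-I, 1.78 to 2.73 times in TAC and 2.04 to 2.27 times in Sham. The highest TAC value, 2.73, was that of TAC 5. On the log2 scale TAC+PDE5A-I lay 0.67 above TAC (two-sided exact permutation adjusted p = 0.0173) and TAC+PDE9A-I 0.54 above TAC (two-sided exact permutation adjusted p = 0.00974). The margin to TAC 5 was small, 2.73 against the lowest drugged values of 2.76 and 2.84. How often other pairs of rows lie apart in these comparisons was not tested. TAC and Sham differed by -0.04 (two-sided exact permutation adjusted p = 0.738), and by -0.14 without TAC 5 (two-sided exact permutation adjusted p = 0.0330).

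By the smallest SD of the log2 ratio to miR-486b-5p across the 21 libraries, among 302 microRNAs averaging at least 10 CPM, the nearest row was miR-486a-5p (SD 0.0749). Next came miR-92a-3p (SD 0.275), a member of the miR-17-92 cluster, miR-151-3p (0.287), miR-664-5p (0.325), miR-1964-3p (0.332) and miR-106b-3p (0.337). The median SD of all 302 was 0.929. The passenger rows of the same hairpins stood farther off, miR-486a-3p 15th (0.384) and miR-486b-3p 105th (0.682).

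The 5 nearest other microRNAs were chosen for following miR-486b-5p over these same libraries, so their differences between groups are a description. miR-92a-3p averaged 22616 ± 8208 CPM in TAC+PDE5A-I and 8838 ± 1629 CPM in TAC (SD, n = 5 each; log2 fold change 1.36 ± 0.30), and the other 4 had log2 fold changes of 0.78 to 1.36. The GC content of the 4 sequences printed above was 57.1% for miR-92a-3p and miR-664-5p and 63.6% for miR-1964-3p and miR-106b-3p. The median over 487 tested microRNAs with a sequence was 50% and the upper quartile 57.1%. Which microRNAs were nearest depended on the libraries, as 2 of the 5 were also among the nearest 5 over the 10 TAC and Sham libraries. The rest of that second set were miR-26b-5p, miR-25-3p and miR-107-3p, with 33.3%, 50% and 47.8% GC. With a limit of 100 CPM over the 21 libraries, 2 of the 5 stayed. miR-664-5p, miR-1964-3p and miR-106b-3p, averaging 28.0, 23.7 and 56.1 CPM, fell below that limit. miR-328-3p (no sequence), let-7d-3p (50% GC) and miR-744-5p (63.6%) entered. The part of GC content in this closeness was not tested.

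The markers of red cells, where miR-486 is also abundant, moved against the guide arm. miR-451a and both arms of miR-144, the erythroid microRNAs tested (3 of 4 listed), summed to 232, 417, 55.8, 29.0 and 23.1 CPM in TAC+PDE5A-I 1 to 5. Their sum was 62.5 CPM in TAC+PDE9A-I 5 and 272 to 1457 CPM in the other TAC+PDE9A-I libraries, 445 to 1211 CPM in TAC and 472 to 1450.2 CPM in Sham. The 4 libraries with the most miR-486b-5p were thus the 4 with the least erythroid microRNA by this sum. This was not particular to red-cell microRNAs. Both arms of the endothelial miR-126a summed to 999 to 3137 CPM in those 4 and to 11315 CPM or more in every other library. Leukocyte and muscle sums were not low there, at 2419 to 3163 and 195922 to 273060 CPM. In TAC+PDE5A-I these sums were mostly miR-150-5p (mean 2368 CPM) and miR-133a-3p (189603 CPM). Other rows of these lists were low, such as miR-142a-3p at 84.0 CPM beside 717 in TAC, and miR-1a-3p at 395 beside 4197. Against TAC, 3 of 7 leukocyte and 7 of 13 muscle microRNAs tested fell, and 2 of each list rose. The part of blood in these levels was not tested. All 3 erythroid microRNAs tested fell in TAC+PDE5A-I against TAC, where 24.8% of all tested microRNAs were called lower. The log2 fold changes were -1.97 ± 0.76 for miR-451a and -4.84 ± 0.78 for miR-144-3p (edgeR adjusted p = 0.0382 and 0.000381). In TAC against Sham and in TAC+PDE9A-I against TAC, 0 of these 3 passed.

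Muscle microRNAs split in the same comparison. Of 13 tested, 2 rose in TAC+PDE5A-I against TAC, 7 fell and 4 were not called, where 21.6% of all tested microRNAs were called higher and 24.8% lower. Their median was -2.37 on the log2 scale, beside -0.31 over all tested microRNAs. miR-133a-3p, which restrains growth of heart muscle cells, had a log2 fold change of 0.82 ± 0.25, and miR-1a-3p, made from the same primary transcripts, of -3.41 ± 0.90. Against the same shares, 2 of 7 leukocyte microRNAs tested rose and 3 fell, and 1 of the 2 endothelial arms of miR-126a fell. In TAC against Sham, where 2.14% of all tested microRNAs were called higher, 2 of 13 muscle microRNAs rose, both arms of miR-208b, from an intron of Myh7, and 11 did not pass, miR-486 having no call in that comparison.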

How the data were processed

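Small-RNA libraries (Illumina TruSeq Small RNA kit, total RNA) were made from left ventricle, per the labels' protocols. The deposited table holds whole-number read counts per microRNA, not normalised, and the sources used here do not give the authors' counting rules. Tools named in the submitters' processing notes, with no step given for any, are DESeq 1.26.0, Bowtie 1.1.1, CASAVA 1.8.4 and cutadapt 1.8. Of 25958 table lines, 24055 were blank and held no value. No count equalled 1, the smallest above 0 being 2. No 2 libraries were identical.

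Counts were filtered with edgeR's filterByExpr (561 microRNAs kept), scaled by TMM and fitted with all 4 groups by the robust quasi-likelihood test (edgeR 4.0.16, limma 3.58.1, R 4.3.3), with Benjamini-Hochberg adjustment over all 561 and a threshold of 0.05. The SE was taken from the fold change and its F value. Arm ratios and shares were compared by two-sided exact permutation tests over libraries (scipy 1.17.1), adjusted over 18 planned tests and, separately, 18 added ones. DESeq2 1.42.0 was an alternative. The count fit was tested on simulated counts for TAC+PDE5A-I against TAC. It called 39.8% of 108 microRNAs simulated with a log2 change of size 1 and 71.7% of 92 with size 2. It also called 5 unchanged microRNAs, so a missing call leaves room for a change of such size.

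Library GC was weighted over microRNAs with a RefSeq sequence, which held 32.0% to 64.9% of counts, with the lowest values in the libraries under 2000000 counts. Of the counts outside miR-486 they held 51.0% to 54.2% in those libraries and 59.8% to 70.0% in the others. Genome positions came from GENCODE M21 and RefSeq. Ear tags mark separate mice, so each library is 1 mouse. The rule for named microRNAs was the 4 rows, the 5 nearest to miR-486b-5p and the context lists of muscle, erythroid, leukocyte and endothelial microRNAs. The members and lists were chosen with earlier results of these data known.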

Additional observations from a re-analysis of the deposited data

Results flagged for a closer look

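In groups of 4 to 6 libraries, 44 sets of values were searched for a library far from the rest of its group. Chance gives about 1 in 20 for a single set. The sets share rows and libraries and are not independent, so their number cannot be set against that rate. Such a library was found in 11 sets. TAC+PDE9A-I 5, the shallowest library of its group at 1546318 counts and 47.2% GC, gave 7 of them. It had 248462 CPM of miR-486b-5p (others 50976 to 98205), 51452 CPM of miR-486a-5p (10011 to 19052), 309921 CPM of both 5p rows (66837 to 116597), 1681 CPM of miR-486a-3p (283 to 619) and 477 CPM of miR-486b-3p (96.0 to 205). Its miR-486 share was 31.3% (7.23% to 12.3%) and its miR-486a-3p to miR-486b-3p ratio 3.53 (2.76 to 3.01). The part of depth and GC content in these values was not tested within the group, which has no second shallow library.

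TAC 5 gave 3, all arm ratios. Its 5p to 3p ratio was 165 for both hairpins (other TAC libraries 87.9 to 89.3), 513 for miR-486b (206 to 227) and 36.7 for miR-486a (20.3 to 22.8). Its depth of 5373960 counts was the lowest of its group (others 5649824 to 8497792), and its GC content of 45.1% lay among theirs (44.9% to 45.1%). TAC+PDE9A-I 6 had the lowest miR-486b arm ratio of its group, 454 against 503 to 531.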

How the results depend on the processing

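Values are log2 fold changes, with miR-486b-5p meant where no row is named. TAC+PDE5A-I against TAC was 0.88 with RLE size factors, 0.82 with no filter and 0.23 without the libraries under 2000000 counts, none passing, and -0.42 with library GC and -0.35 with library depth as a covariate. TAC+PDE5A-I against TAC+PDE9A-I did not pass with RLE (0.84), no filter (0.84), the ear tag range (0.83), the replicate block (1.07), those 2 groups alone (0.89), library depth (0.086), or without the libraries under 2000000 counts (0.57), and was -0.16 with library GC. TAC+PDE5A-I against Sham passed with upper-quartile scaling (1.47), total counts (1.08), total counts without the miR-486 rows (1.40) and without TAC 5 and TAC+PDE9A-I 5 (0.90), and turned to -0.76 with library GC and -0.38 with library depth. TAC+PDE9A-I against TAC, near 0, turned to -0.023 with no filter, -0.032 with the replicate block, -0.26 with library GC, -0.43 with library depth, -0.0080 with those 2 groups alone, -0.36 without TAC 5 and TAC+PDE9A-I 5 and -0.34 without the libraries under 2000000 counts. TAC+PDE9A-I against Sham turned to 0.14 with upper-quartile scaling, 0.087 with total counts, 0.20 with total counts without the miR-486 rows and 0.18 with the ear tag range. TAC against Sham turned to 0.00014 with no filter. The cause was not tested in any of these, and the covariates, which moved with the groups, were chosen after seeing the data, as were the 2 settings without shallow or outlying libraries.

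Other values that turned sign were, for miR-486a-5p, -0.37 (library GC) and -0.32 (depth) in TAC+PDE5A-I against TAC, -0.17 (GC) in TAC+PDE5A-I against TAC+PDE9A-I, -0.79 (GC) and -0.43 (depth) in TAC+PDE5A-I against Sham, -0.20 (GC), -0.38 (depth), -0.30 (without TAC 5 and TAC+PDE9A-I 5) and -0.30 (without the libraries under 2000000 counts) in TAC+PDE9A-I against TAC, and 0.15 (upper quartile), 0.083 (total counts), 0.21 (total without miR-486) and 0.17 (ear tag) in TAC+PDE9A-I against Sham. For both 5p rows summed they were -0.42 (GC) and -0.38 (depth), -0.14 (GC), and -0.64 (GC), -0.31 (depth) and -0.00531 (libraries under 2000000 left out) in the same order of comparisons. In TAC+PDE9A-I against TAC they were -0.061 (no filter), -0.034 (replicate block), -0.28 (GC), -0.44 (depth), -0.36 (2 outlying libraries left out) and -0.37 (shallow libraries left out), in TAC+PDE9A-I against Sham 0.16 (upper quartile), 0.086 (total), 0.21 (total without miR-486) and 0.22 (ear tag), and in TAC against Sham 0.067 (depth). For miR-486a-3p they were -0.85 (GC), -0.86 (depth) and -0.087 (shallow libraries left out) in TAC+PDE5A-I against TAC, -0.17 (GC) in TAC+PDE5A-I against TAC+PDE9A-I, and -0.14 (RLE), -0.022 (no filter), -0.00209 (replicate block), -1.502 (GC), -1.19 (depth), -0.12 (2 groups alone), -0.14 (DESeq2) and -0.62 (shallow libraries left out) in TAC+PDE5A-I against Sham. For miR-486b-3p they were 0.35 (upper quartile) and 0.16 (total without miR-486) in TAC+PDE5A-I against TAC and -0.047 (GC) in TAC+PDE5A-I against TAC+PDE9A-I.

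The log2 5p to 3p ratio without TAC 5 and TAC+PDE9A-I 5 differed by 0.83 in TAC+PDE5A-I and 0.79 in TAC+PDE9A-I against TAC, both passing, and by 0.14 in TAC against Sham, not passing. Without the libraries under 2000000 counts it differed from Sham by 0.78 in TAC+PDE5A-I, 0.93 in TAC+PDE9A-I and 0.32 in TAC, none passing, with fewer libraries to permute. TAC+PDE5A-I against TAC+PDE9A-I then turned to -0.15, with miR-486a at -0.094 and miR-486b at -0.16, and the 5p rows' a to b ratio of TAC+PDE5A-I against Sham to 0.029. The share difference of TAC+PDE9A-I turned to -2.27 points against TAC and -2.86 against Sham without TAC 5 and TAC+PDE9A-I 5, and to -2.34 and -2.86 without the shallow libraries.

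Leaving out 1 library at a time, miR-486b-5p ranged over 0.62 to 1.27 in TAC+PDE5A-I against TAC (7 of 21 losing the call), 0.69 to 1.24 against TAC+PDE9A-I (10 losing it) and 0.49 to 0.98 against Sham (3 passing), over -0.37 to 0.26 in TAC+PDE9A-I against TAC and -0.47 to 0.081 against Sham, and over -0.37 to 0.078 in TAC against Sham. In TAC against Sham, TAC+PDE9A-I against TAC and TAC+PDE9A-I against Sham, miR-486a-5p ranged over -0.43 to 0.011, -0.33 to 0.32 and -0.50 to 0.080, the summed 5p rows over -0.38 to 0.066, -0.37 to 0.28 and -0.47 to 0.012, and the share over -1.56 to 0.12, -2.34 to 2.47 and -2.86 to 1.94 points. miR-486b-3p in TAC+PDE5A-I against TAC ranged over -0.56 to 0.11, and miR-486a-3p against Sham over -0.29 to 0.12. The a to b ratio ranged over -0.021 to 0.043 (5p, TAC+PDE5A-I against TAC+PDE9A-I), -0.044 to 0.020 (5p, TAC+PDE5A-I against Sham) and -0.14 to 0.013 (3p, TAC against Sham). The log2 arm ratio ranged over 0.60 to 0.83, 0.011 to 0.11 and 0.92 to 1.02 for TAC+PDE5A-I against TAC, TAC+PDE9A-I and Sham, 0.54 to 0.77 and 0.88 to 0.94 for TAC+PDE9A-I against TAC and Sham, and 0.14 to 0.37 for TAC against Sham. Counts of microRNAs called in TAC+PDE5A-I against TAC were 121 higher and 139 lower, 172 and 110 with upper-quartile scaling, 58 and 143 with no filter, 0 and 2 with library GC, 0 and 2 with library depth, and 41 and 81 without the shallow libraries. In TAC against Sham they were 12 and 1, and 75 and 23 with those 2 groups alone. Upper-quartile scaling moved the median of all microRNAs in TAC+PDE5A-I against TAC to 0.16. The GC correction of each microRNA, alone or with the replicate block, was not run, as no miR-486 row had a sequence in the reference table. Same-numbered libraries did not deviate together (30 pairs, correlations -0.21 to 0.35, median 0.0017, 7 over 0.1), so the numbers do not pair them and the replicate block is given only as a setting. Every miR-486 row had at least 572 counts in every library.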
